A study of Homo sapiens with 4 samples.

Results

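Aminoacyl-tRNA synthetases join each amino acid to its tRNA before the ribosome uses it. The cell holds one set of enzymes for the cytosol and another, encoded by separate nuclear genes, for the mitochondrial matrix. The genes described here are 36 named synthetase genes out of 25680 gene names in the deposited tables, chosen by symbol: 20 cytosolic enzymes, and 16 mitochondrial enzymes whose symbols end in 2. Their transcripts were measured by RNA-seq in THP-1, an established line of human monocytic leukaemia cells, and compared between cells given a lentivirus that carries a short hairpin RNA (shRNA) against PIWIL4 (shPIWIL4, 2 libraries) and cells given a lentivirus with a scrambled shRNA (Scrambled, 2 libraries). Cells of both groups were transduced and sorted 48 hours later, in a study of what PIWIL4, a PIWI-family Argonaute protein, does in acute myeloid leukaemia cells. The labels list 1 shRNA against PIWIL4 in 1 cell line. They do not say whether the 2 libraries of a group came from separate cultures, so p-values measure the spread between these libraries, which may be technical.

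Most synthetases are needed in every cell, and cytosolic enzymes are bound together in part: EPRS, IARS, LARS, MARS, QARS, KARS, RARS and DARS are known to sit in the multisynthetase complex with the scaffold proteins AIMP1, AIMP2 and EEF1E1. GARS and KARS encode both the cytosolic and the mitochondrial enzyme of their amino acid, and glutaminyl-tRNA in mitochondria is made by a transamidation route instead of a glutamine enzyme. Many cytosolic synthetase genes are known targets of ATF4, the transcription factor of the amino acid response, and uncharged tRNA switches that response on through the kinase GCN2 (EIF2AK4). Some synthetase genes have other inputs, such as WARS, which interferon-gamma induces.

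Total counts were 50689304 and 53657246 in shPIWIL4 libraries 1 and 2 and 31458079 and 51655687 in Scrambled libraries 1 and 2. PIWIL4 itself stood at 17.8 and 17.4 CPM (counts scaled to the library total with TMM factors) in the shPIWIL4 libraries, against 38.5 and 37.2 CPM in the Scrambled libraries, a log2 fold change of -1.10 (SE 0.09, edgeR adjusted p 1.3e-05). All 10 THP-1 marker genes examined were tested, among them the myeloid receptor gene CD33 at 72.0 CPM in shPIWIL4 and 69.0 CPM in Scrambled. Of the 10, 2 were called higher (20%, edgeR adjusted p under 0.05) and 5 lower (50%), against 28.7% higher and 29.1% lower over all genes tested. Among the 5 lower, CD86, PTPRC, CD4 and MPO had log2 fold changes of -2.77, -0.94, -0.74 and -0.89. The 3 markers each of T, B, erythroid, epithelial and fibroblast cells summed to at most 2.16 CPM per list in the shPIWIL4 libraries and at most 5.45 CPM in the Scrambled libraries. CD3E and COL1A2, which define T cells and fibroblasts, were at 0 in all 4 libraries, and MS4A1 of B cells and CDH1 of epithelial cells had at most 2 counts. The 5 of these 15 markers that could be tested were all lower in shPIWIL4, and LYZ, the lysozyme gene of monocytic cells, was higher, at 1810.2 ± 10 CPM in shPIWIL4 against 147 ± 5.6 CPM in Scrambled (SD, n = 2 each). The part of these shifts in the results on synthetase genes was not tested. Fewer cells of a type and less RNA per cell cannot be told apart in such bulk samples.

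Of the 36 synthetase genes, 34 passed the filter on low counts, with between 209 and 23232 counts in each library. VARS and VARS2, the cytosolic and mitochondrial valine enzymes, were listed at 0 in all 4 libraries. Valine charging is needed in every cell, so nothing about their expression is read from these zeros. Both genes lie on chromosome 6. Of the 20 protein-coding neighbours on each side of a gene that were found in the tables, 9 of 39 around VARS and 14 of 38 around VARS2 were also at 0 in every library, against 0 to 11 (median 2) around the other 34 members. Levels of different genes were compared by TPM, which is scaled for gene length and library total. In shPIWIL4 the cytosolic enzymes had group means of 25.4 to 275 TPM with a median of 109, against 28.6 to 238 TPM with a median of 92.5 in Scrambled. The mitochondrial enzymes had group means of 3.66 to 172 TPM with a median of 23.0 in shPIWIL4, against 5.99 to 124 TPM with a median of 19.1 in Scrambled.

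Promoter sequence was examined for the element through which ATF4 acts on synthetase genes. The windows were RefSeq promoters on GRCh38.p14, from 250 bases before to 50 bases after an annotated start, and 30 of the 36 genes had at least 1 window. DARS, LARS, VARS, YARS, AARS2 and VARS2 had none. The letters TGATGNAA, the core of the C/EBP-ATF response element, were searched on both strands. They were present for 7 of 16 cytosolic genes (43.8%) and 1 of 14 mitochondrial genes (7.14%), against 4.46% of 27305 genes with a window. The tighter letters TTGCATCA, which are one form of TGATGNAA read on the other strand, were present for 6 cytosolic genes (37.5%), 0 mitochondrial genes and 1.08% of all genes. The 8 matches are shown because they mark the genes that carry the element, each as 30 bases, 5′ to 3′ along the gene's strand, with the match in capitals.
AARS: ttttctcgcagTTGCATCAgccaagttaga
CARS: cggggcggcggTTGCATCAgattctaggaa
GARS: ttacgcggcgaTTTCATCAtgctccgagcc
IARS: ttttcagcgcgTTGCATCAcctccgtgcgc
MARS: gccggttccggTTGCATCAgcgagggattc
NARS: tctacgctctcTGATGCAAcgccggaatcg
TARS: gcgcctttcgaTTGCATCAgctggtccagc
YARS2: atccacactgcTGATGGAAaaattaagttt

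The matched stretches lie at chr16:70289675-70289704 (minus strand) for AARS, chr11:3057407-3057436 (minus) for CARS, chr7:30594834-30594863 (plus) for GARS and chr9:92293692-92293721 (minus) for IARS. Those of MARS, NARS, TARS and YARS2 lie at chr12:57488053-57488082 (plus), chr18:57621804-57621833 (minus), chr5:33440956-33440985 (plus) and chr12:32756076-32756105 (minus). In CARS, IARS, MARS, NARS and TARS the match began close to the start site, at base -2, -13, -4, 15 and 3, where base 1 is the first transcribed base. In AARS and YARS2 it began far upstream, at base -187 and -197, and in GARS at base -33 of the second annotated start. A match is a stretch of letters and does not show that a factor binds there.

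In the shPIWIL4 libraries, cytosolic synthetase transcripts were more often higher than lower. Of 19 tested, 10 rose (52.6%), 3 fell (15.8%) and 6 were not called, where a call is an adjusted p under 0.05 in edgeR's quasi-likelihood test. Over all 16108 genes tested, 57.7% were called, 28.7% higher and 29.1% lower. The rises were all under 2-fold, from 0.37 to 0.92 on the log2 scale, and the median log2 fold change over the tested cytosolic genes was 0.37, beside -0.0034 over all genes. Among the mitochondrial enzymes 6 of 15 rose (40%), 2 fell (13.3%) and 7 were not called, with a median log2 fold change of 0.15. The groups did not overlap in 16 of 19 cytosolic and 12 of 15 mitochondrial genes, against 78.6% of all genes. With upper-quartile scaling, which set the median of all genes to -0.12, the cytosolic median was 0.24 and the mitochondrial median 0.03.

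**Figure D1:**
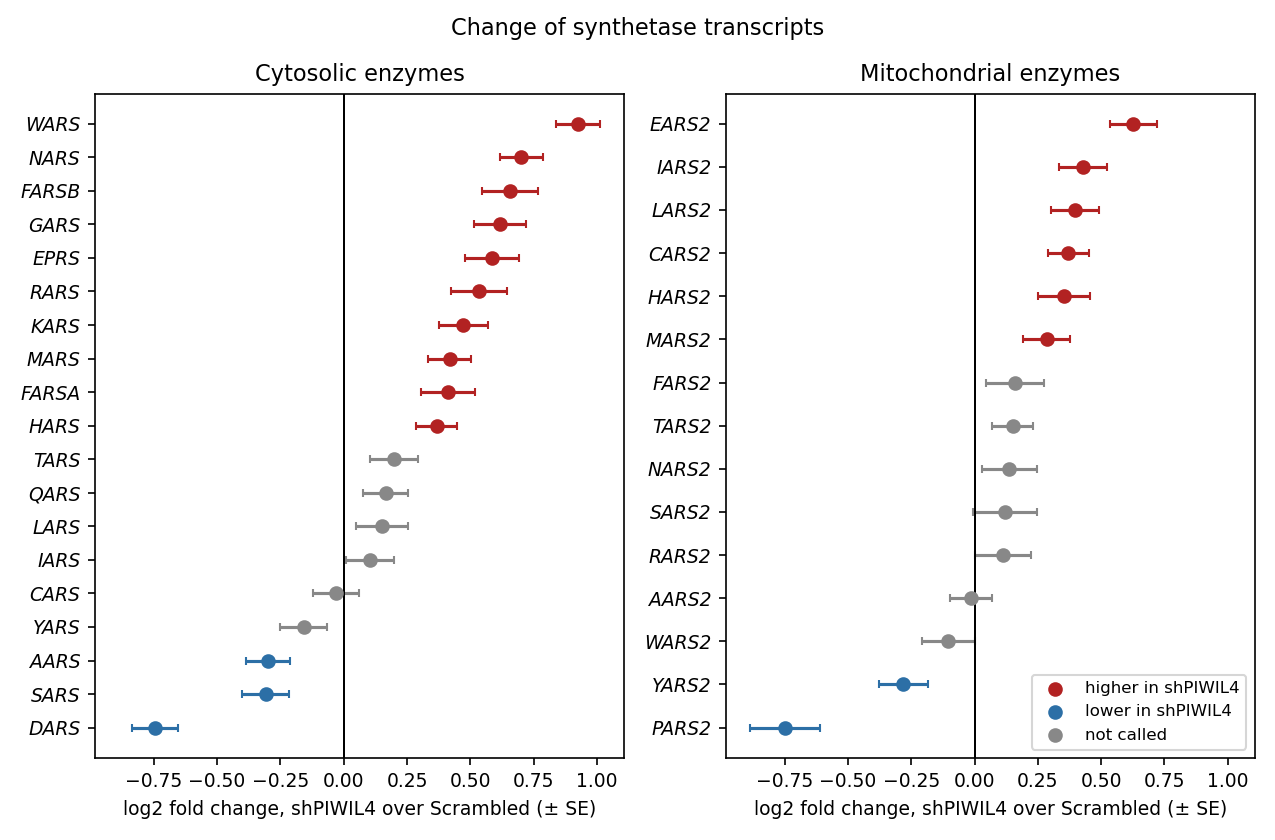
Log2 fold change of each tested synthetase transcript, shPIWIL4 over Scrambled (x axis, points with standard errors, n = 2 libraries each), with cytosolic enzymes on the left and mitochondrial enzymes on the right. Among cytosolic enzymes WARS is highest at 0.92 and DARS lowest at -0.75, and among mitochondrial enzymes EARS2 is highest at 0.63 and PARS2 lowest at -0.75.

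WARS, the tryptophan enzyme, rose most of the 34 genes. It had 95.9 and 106 CPM in shPIWIL4 libraries 1 and 2, against 54.2 and 52.3 CPM in Scrambled libraries 1 and 2. Both shPIWIL4 libraries lay well above both Scrambled libraries, and the log2 fold change was 0.92 (SE 0.09), which is 1.90-fold, with an edgeR adjusted p of 2.57e-05. Because WARS is known as an interferon-gamma target, the signal elements TTCNNNGAA (the STAT site) and the interferon-stimulated element (TTTC, any 2 bases, TTTC) were searched in its windows on both strands, a search added after its values were seen. Each was found once, around the second of its RefSeq starts, and the stretches are shown for that reason, in the same form as above.
WARS STAT letters: gctcaagtgtTTCTGAGAAtctgggtgatt
WARS interferon letters: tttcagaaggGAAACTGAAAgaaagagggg

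These stretches lie at chr14:100375470-100375499 and chr14:100375383-100375412 on the minus strand of GRCh38.p14, and the matches begin at base -142 and -55. The STAT letters were present for 9.38% of all genes with a window, 3 of 16 cytosolic genes and 2 of 14 mitochondrial genes. The interferon letters were present for 4.38% of all genes, 1 cytosolic gene and 1 mitochondrial gene. Of 13 listed interferon-gamma response genes other than WARS, 9 were tested. Of these, 2 rose (22.2%) and 2 fell (22.2%), against 28.7% higher and 29.1% lower of all genes. Their median log2 fold change was -0.07. Some of the 9 had at most 30 counts in every library and were not called. GBP2, an interferon-induced GTPase, fell to 2.20 ± 0.37 CPM in shPIWIL4, against 13.6 ± 1.0 CPM in Scrambled (SD, n = 2 each). GBP4 rose by 0.61 and CIITA, the activator of class II genes, fell by 0.81 on the log2 scale.

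Both subunits of phenylalanine synthetase rose. FARSB, the beta subunit, had 65.3 and 81.1 CPM in shPIWIL4 libraries 1 and 2, against 47.8 and 45.1 CPM in Scrambled libraries 1 and 2 (log2 fold change 0.66, SE 0.11, edgeR adjusted p 7.82e-04). FARSA, the alpha subunit that holds the catalytic site, had 135 and 109 CPM in shPIWIL4, against 88.7 and 94.1 CPM in Scrambled (0.41, SE 0.11). The shPIWIL4 libraries were higher for both subunits, but library 1 was the higher of them for FARSA and library 2 for FARSB.

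NARS, the asparagine enzyme, and GARS, the glycine enzyme of both compartments, also rose. NARS had 275 and 299 CPM in the shPIWIL4 libraries, against 176 and 177 CPM in the Scrambled libraries (log2 fold change 0.70, SE 0.08, edgeR adjusted p 1.08e-04). GARS had 183 and 219 CPM in the shPIWIL4 libraries, against 136 and 126 CPM in the Scrambled libraries (0.62, SE 0.10). The groups were apart for both genes. HARS, the histidine enzyme, had 67.4 and 71.5 CPM in the shPIWIL4 libraries, against 54.5 and 53.2 CPM in the Scrambled libraries (0.37, SE 0.08), again with no overlap.

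The multisynthetase complex was mixed. Of its 8 enzymes, 4 rose, 1 fell and 3 were not called, with a median log2 fold change of 0.29. Of the 11 tested cytosolic enzymes outside it, 6 rose and 2 fell, with a median of 0.37. Thus 62.5% were called in the complex and 72.7% outside it, beside 57.7% of all genes (28.7% higher and 29.1% lower). EPRS, which joins the glutamate and proline enzymes in 1 protein, had 379 and 447 CPM in the shPIWIL4 libraries, against 289.9 and 261 CPM in the Scrambled libraries (0.59, SE 0.11, edgeR adjusted p 1.17e-03). KARS, the lysine enzyme of both compartments, had 197 and 229 CPM in the shPIWIL4 libraries, against 159.6 and 148 CPM in the Scrambled libraries (0.47, SE 0.10). Both genes were higher in each shPIWIL4 library. RARS, the arginine enzyme, had 80.9 and 100.2 CPM in the shPIWIL4 libraries, against 65.4 and 59.6 CPM in the Scrambled libraries (0.54, SE 0.11). MARS, the methionine enzyme, had 167 and 182 CPM in the shPIWIL4 libraries, against 135 and 127 CPM in the Scrambled libraries (0.42, SE 0.09). QARS, the glutamine enzyme, had 360.2 and 392 CPM in the shPIWIL4 libraries, against 345 and 326 CPM in the Scrambled libraries. Its groups did not overlap, but the log2 fold change of 0.17 (95% interval -0.04 to 0.37) was not called (edgeR adjusted p 0.14). IARS and LARS, the isoleucine and leucine enzymes, had log2 fold changes of 0.10 and 0.15, overlapped between groups and were not called.

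DARS, the aspartate enzyme of the same complex, went the other way. It had 103 and 118 CPM in shPIWIL4 libraries 1 and 2, against 188 and 181 CPM in Scrambled libraries 1 and 2. Each shPIWIL4 library was far below both Scrambled libraries, with a log2 fold change of -0.75 (SE 0.09, edgeR adjusted p 1.19e-04). DARS-AS1, the antisense transcript that starts beside it, was also looked up after its values were seen and fell to 7.70 and 7.68 CPM in the shPIWIL4 libraries, against 14.95 and 17.3 CPM in the Scrambled libraries, with a log2 fold change of -1.07. In GENCODE 29 transcripts, 4.67% of the distinct 50-base stretches of DARS lie in DARS-AS1 on the opposite strand. No strand setting is given in the sources used here, so reads of those stretches cannot be assigned to one gene. Of the scaffold genes, AIMP2 rose by 0.69 (SE 0.09), to 54.9 ± 2.3 CPM in shPIWIL4 against 34.0 ± 1.8 CPM in Scrambled (SD, n = 2 each), and EEF1E1 rose by 0.43 (SE 0.11). AIMP1, named after its values were seen, had a log2 fold change of 0.07 (SE 0.09) and was not called.

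AARS and SARS, the alanine and serine enzymes, were the other cytosolic genes that fell. AARS had 204 and 224 CPM in the shPIWIL4 libraries, against 271 and 255 CPM in the Scrambled libraries (log2 fold change -0.30, SE 0.09, edgeR adjusted p 0.016). SARS had 55.9 and 64.6 CPM in the shPIWIL4 libraries, against 76.6 and 72.7 CPM in the Scrambled libraries (-0.31, SE 0.09, edgeR adjusted p 0.0182). Both genes were lower in each shPIWIL4 library, but neither passed the test without Scrambled library 1 (edgeR adjusted p 0.205 for AARS and 0.156 for SARS), when DARS was the 1 cytosolic gene called lower. CARS, TARS and YARS, the cysteine, threonine and tyrosine enzymes, had log2 fold changes of -0.03 (95% interval -0.24 to 0.17), 0.20 and -0.16 and were not called.

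**Figure D2:**
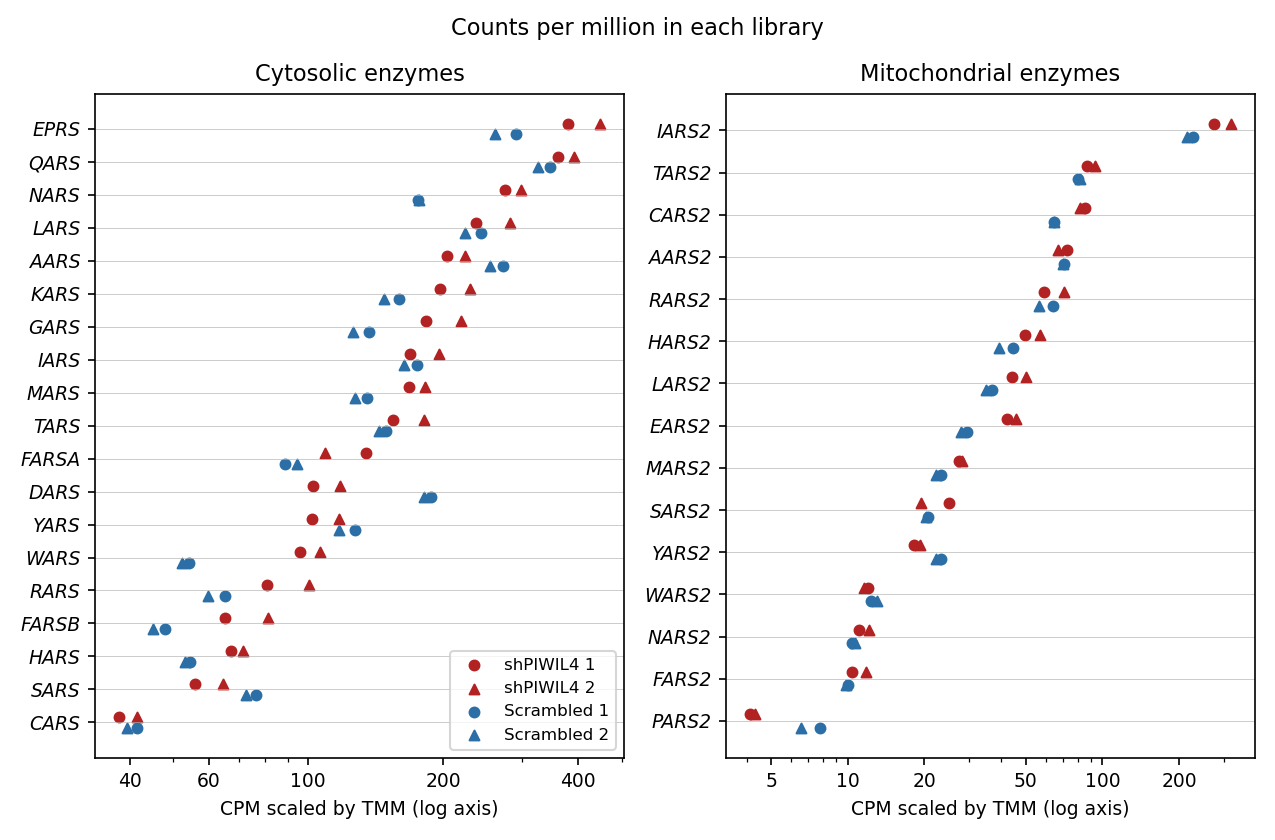
CPM scaled by TMM in each of the 4 libraries (x axis, logarithmic) for the 34 tested synthetase genes, ordered by their mean in shPIWIL4, with red marks for shPIWIL4 and blue for Scrambled libraries. DARS stands at 103 and 118 CPM in shPIWIL4 against 188 and 181 CPM in Scrambled, and WARS at 95.9 and 106 CPM in shPIWIL4 against 54.2 and 52.3 CPM in Scrambled.

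Among the mitochondrial enzymes, EARS2, which charges glutamate and starts the transamidation route to glutaminyl-tRNA, rose most. It had 42.3 and 45.9 CPM in shPIWIL4 libraries 1 and 2, against 29.4 and 27.8 CPM in Scrambled libraries 1 and 2 (log2 fold change 0.63, SE 0.09, edgeR adjusted p 3.79e-04). IARS2, the isoleucine enzyme and the most abundant mitochondrial member per length, had 275 and 319 CPM in the shPIWIL4 libraries, against 226 and 215 CPM in the Scrambled libraries (0.43, SE 0.10). The groups were apart for both genes. LARS2, the leucine enzyme, had 44.3 and 50.01 CPM in the shPIWIL4 libraries, against 36.8 and 34.9 CPM in the Scrambled libraries (0.40, SE 0.10). CARS2, the cysteine enzyme, had 85.2 and 81.6 CPM in the shPIWIL4 libraries, against 64.3 and 64.7 CPM in the Scrambled libraries (0.37, SE 0.08). Each shPIWIL4 library was higher than each Scrambled library for these genes as well. MARS2, the methionine enzyme, had 27.4 and 28.1 CPM in the shPIWIL4 libraries, against 23.3 and 22.3 CPM in the Scrambled libraries (0.29, SE 0.09, edgeR adjusted p 0.0249). Without Scrambled library 2, HARS2, LARS2 and MARS2 were not called (edgeR adjusted p 0.149, 0.052 and 0.224) and 3 mitochondrial enzymes were called higher.

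PARS2, the proline enzyme, was the least abundant member and fell as far as DARS. It had 4.12 and 4.33 CPM in the shPIWIL4 libraries, against 7.78 and 6.54 CPM in the Scrambled libraries. Its groups were clearly apart, with a log2 fold change of -0.75 (SE 0.14, edgeR adjusted p 1.32e-03). YARS2, the tyrosine enzyme, had 18.2 and 19.1 CPM in the shPIWIL4 libraries, against 23.2 and 22.2 CPM in the Scrambled libraries (-0.28, SE 0.10, edgeR adjusted p 0.0314). YARS2 was not called by DESeq2 (adjusted p 0.0926), and without Scrambled library 1, Scrambled library 2 or shPIWIL4 library 1 its edgeR adjusted p was 0.285, 0.141 and 0.0575. The remaining 7 tested mitochondrial genes, AARS2, FARS2, NARS2, RARS2, SARS2, TARS2 and WARS2, had log2 fold changes of -0.10 to 0.16 and were not called. TARS2, the threonine enzyme, stood at 86.7 and 93.1 CPM in the shPIWIL4 libraries, against 79.9 and 81.9 CPM in the Scrambled libraries, with no overlap, and was still not called (0.15, edgeR adjusted p 0.139). For AARS2 the 95% interval was -0.20 to 0.17. SARS2 differed between the shPIWIL4 libraries, at 24.9 and 19.4 CPM in shPIWIL4 libraries 1 and 2, against 20.6 and 20.2 CPM in the Scrambled libraries, and 39.5% of its distinct 50-base stretches also lie in another GENCODE locus, AC011455.2, so its count is uncertain.

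HARS and HARS2, the cytosolic and mitochondrial histidine enzymes, are neighbours on chromosome 5 that point away from each other, and both rose. HARS2 had 49.8 and 57.0 CPM in the shPIWIL4 libraries, against 44.5 and 39.3 CPM in the Scrambled libraries (log2 fold change 0.35, SE 0.10, edgeR adjusted p 0.0151), beside 0.37 for HARS. Their TPM ratio, HARS over HARS2, was 1.53 and 1.42 in the shPIWIL4 libraries and 1.39 and 1.53 in the Scrambled libraries, so that the groups overlapped. The annotated RefSeq starts are 85 bases apart. The 84 bases between them, at chr5:140691371-140691454 on the plus strand of GRCh38.p14, are shown because they separate the start sites and lie in the promoter windows of both genes. They are 59.5% G and C and hold no match to TGATGNAA.
HARS to HARS2 interval: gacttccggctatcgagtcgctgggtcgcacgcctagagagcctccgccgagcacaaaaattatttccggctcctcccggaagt

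In GENCODE 29, 8.71% of the distinct 50-base stretches of HARS2 lie in HARS on the opposite strand and 4.68% of those of HARS lie in HARS2, so reads from these stretches cannot be assigned to one gene without a strand setting. Such overlap was also found for MARS, with 4.18% of its stretches in ARHGAP9 and 3.3% in DDIT3 on the other strand, for EARS2 with 5.16% in UBFD1, and for WARS with 3.93% in AL157871.4. AARS, EPRS, NARS, RARS, SARS, TARS, IARS2, MARS2, PARS2 and RARS2 shared 0% of their stretches with any other annotated gene.

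For most amino acids the cytosolic enzyme was the more abundant one per length. The TPM ratio of the cytosolic to the mitochondrial enzyme was above 1 in all 4 libraries for 11 of 15 pairs. IARS and CARS were lower than their mitochondrial partners, with ratios of 0.462 and 0.461 in the shPIWIL4 libraries and 0.583 and 0.573 in the Scrambled libraries for IARS over IARS2. The ratio changed both ways between groups: it was higher in shPIWIL4 for 9 pairs and lower for 6, and shPIWIL4 and Scrambled ratios stood apart in 6 of the higher and 5 of the lower pairs. With 2 libraries against 2 an exact permutation test cannot reach a p under 0.05, and the ratios were not tested.

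The proline pair moved most. EPRS over PARS2 was 43.7 and 49.1 in the shPIWIL4 libraries, against 17.7 and 18.97 in the Scrambled libraries, a difference of 1.34 on the log2 scale, whereas EPRS over EARS2, the glutamate pair, was 7.08 and 7.69 in shPIWIL4 against 7.78 and 7.40 in Scrambled. The tryptophan pair WARS over WARS2 was 7.64 and 8.77 in the shPIWIL4 libraries, against 4.22 and 3.85 in the Scrambled libraries. RARS over RARS2, the arginine pair, was above 1 in shPIWIL4, at 1.17 and 1.21, and below 1 in Scrambled, at 0.872 and 0.910. The largest change toward the mitochondrial enzyme was in SARS over SARS2, at 0.980 and 1.45 in shPIWIL4 against 1.63 and 1.57 in Scrambled, a log2 difference of -0.42 that rests on the uncertain SARS2 count.

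**Figure D3:**
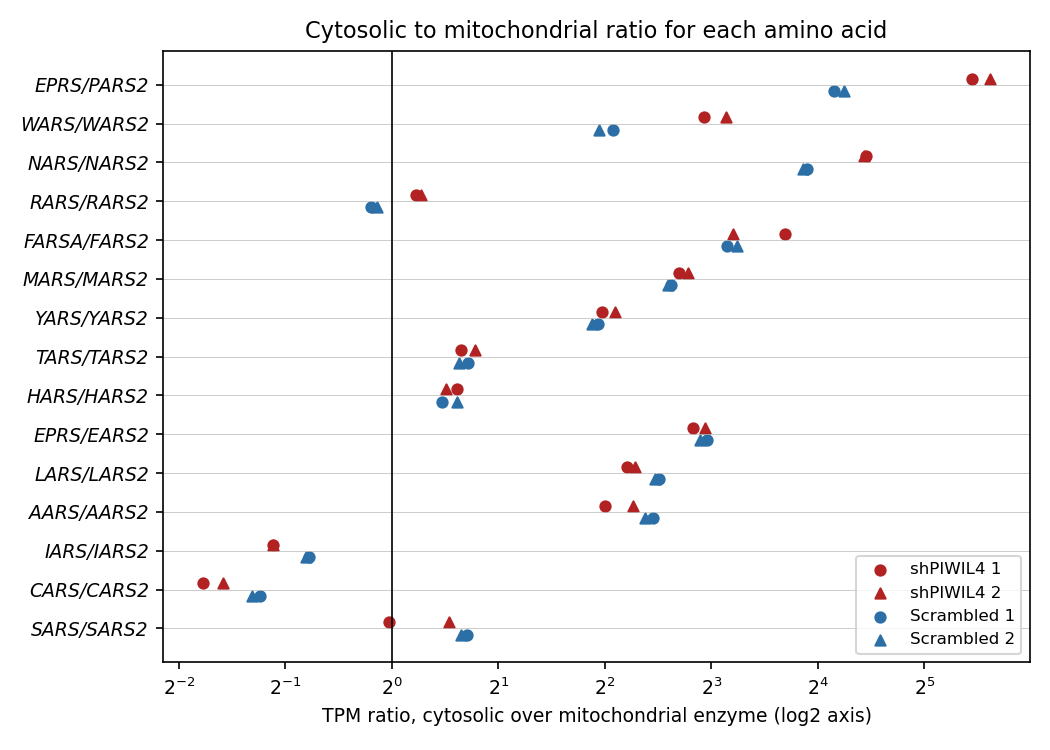
TPM ratio of the cytosolic to the mitochondrial enzyme of the same amino acid in each library (x axis, log2 scale), for 15 pairs ordered by the difference between groups, with red marks for shPIWIL4 and blue for Scrambled libraries. EPRS/PARS2 stands at 43.7 and 49.1 in shPIWIL4 against 17.7 and 18.97 in Scrambled, and RARS/RARS2 lies on opposite sides of 1 in the groups.

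Summed over each compartment, levels were higher in shPIWIL4 by nearly the same ratio. The cytosolic members together held 2099 and 2259 TPM in shPIWIL4 libraries 1 and 2, against 1770.4 and 1729.9 TPM in Scrambled libraries 1 and 2. The mitochondrial members held 603 and 627 TPM in the shPIWIL4 libraries, against 503 and 496 TPM in the Scrambled libraries. Both sums were higher in each shPIWIL4 library, by 1.24-fold for the cytosolic and 1.23-fold for the mitochondrial members, and by 1.19-fold and 1.21-fold in CPM. In the order of TPM levels QARS stood first in both groups, at 275 ± 9.7 TPM in shPIWIL4 and 238 ± 4.7 TPM in Scrambled (SD, n = 2 each). NARS followed in shPIWIL4 at 206 ± 7.0 TPM, which did not differ from KARS at 200.3 ± 16 TPM beyond their spread, and AARS followed in Scrambled at 157 ± 3.7 TPM. AARS was at rank 7 among cytosolic members in shPIWIL4 at 132 ± 5.3 TPM. DARS was at rank 14 in shPIWIL4 (72.0 ± 5.1 TPM), against rank 5 in Scrambled (117 ± 0.56 TPM).

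Synthetases fall into 2 unrelated structural classes, and EPRS holds a domain of each. The counts below stand beside 28.7% higher and 29.1% lower over all genes tested. Among cytosolic enzymes of class I, 3 of 8 tested rose (37.5%) and 0 fell. Among those of class II, 6 of 10 rose (60%) and 3 fell (30%). In the mitochondrial set 5 of 8 class I enzymes rose and 1 fell, and 1 of 7 class II enzymes rose and 1 fell. Cytosolic enzymes known as ATF4 targets rose in 5 of 12 tested members and fell in 2, with a median log2 fold change of 0.17, and the other 7 cytosolic enzymes rose in 5 and fell in 1, with a median of 0.41. By promoter letters, 3 of 7 cytosolic genes with TGATGNAA rose and 1 fell (median 0.20), and of the 9 without, 7 rose and 1 fell (median 0.47). The difference between these subsets was not tested.

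Other genes of the amino acid response moved both ways. Of 30 listed and tested, 12 rose (40%) and 13 fell (43.3%), with a median log2 fold change of -0.06. The shares over all genes tested were 28.7% higher and 29.1% lower. ATF4, named here after its values were seen, fell to 297 ± 25 CPM in shPIWIL4, against 465 ± 19 CPM in Scrambled (SD, n = 2 each). STC2 and DDIT4, a stress hormone gene and an inhibitor of mTORC1, fell by 3.27 and 1.92 on the log2 scale, and the transcription factor gene ATF5 fell by 1.58. SLC7A11, the cystine transporter gene, rose to 54.7 ± 3.6 CPM in shPIWIL4, against 15.7 ± 0.99 CPM in Scrambled, and VLDLR, a lipoprotein receptor gene, rose by 1.53. Among GCN1 (GCN1L1) and the kinases that act on eIF2alpha, 4 of 5 genes rose (80%) and 0 fell, with a median of 0.30. EIF2AK2, the double-stranded RNA kinase, rose by 0.69 (SE 0.10), and EIF2AK4, which senses uncharged tRNA, EIF2AK1 and GCN1L1 had log2 fold changes of 0.30, 0.30 and 0.26. With upper-quartile scaling or without Scrambled library 2, 1 of these 5 genes was called.

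Most genes that make tRNA ready for the synthetases rose. In the list for tRNA maturation and export, 15 of 22 rose (68.2%) and 1 fell (4.55%), with a median log2 fold change of 0.44. Over all genes tested, 28.7% were called higher and 29.1% lower. RPP25, a subunit of RNase P, rose to 18.0 ± 0.52 CPM in shPIWIL4, against 9.61 ± 0.57 CPM in Scrambled (SD, n = 2 each). TSEN15, a subunit of the tRNA splicing endonuclease, rose by 0.72, RPP14, another RNase P subunit, by 0.64, ELAC2, the enzyme that trims the 3′ end, by 0.46, and FAM98B by 0.50. Among the partners of mitochondrial tRNA and translation 11 of 15 rose (73.3%) and 0 fell, with a median of 0.44. GFM1 and TUFM, mitochondrial elongation factors, rose by 0.81 and 0.74, MTIF2, an initiation factor, by 0.63, MTO1, which modifies mitochondrial tRNA, by 0.48, and QRSL1, a subunit of the glutamine transamidase, by 0.66. Of 4 proofreading and trans-editing genes 0 rose and 1 fell, DTD1, a deacylase of mischarged tRNA, by 0.43, with a median of 0.08.

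**Figure D4:**
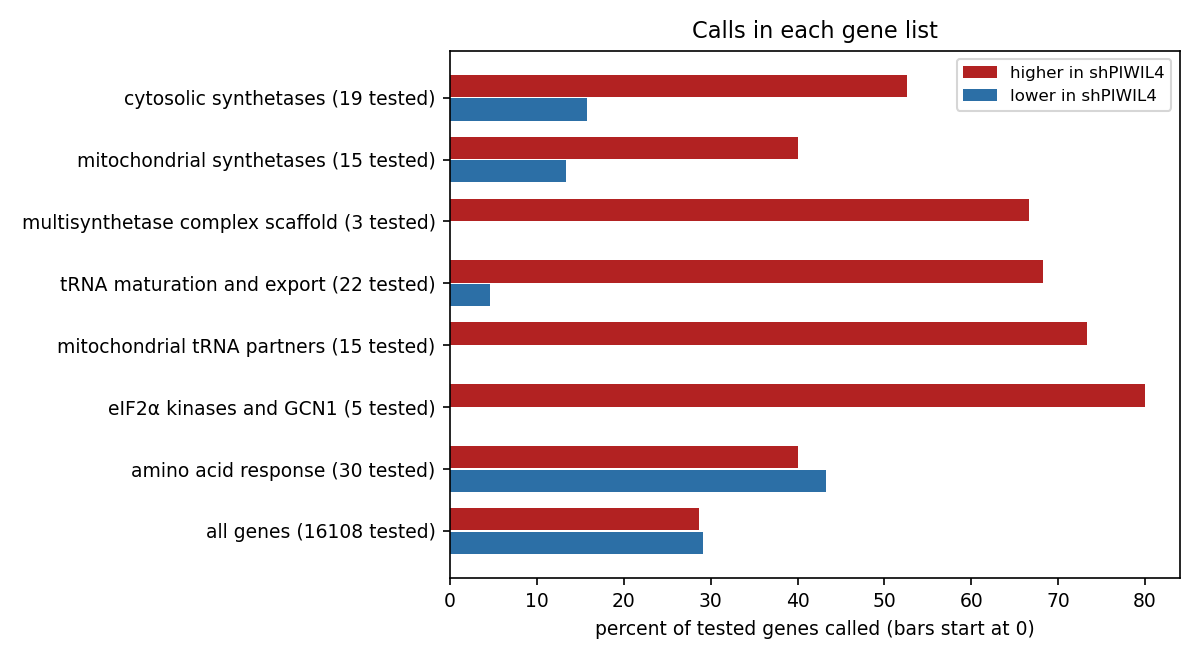
Percent of tested genes called higher (red) and lower (blue) in shPIWIL4 at an edgeR adjusted p under 0.05, for the synthetases, 5 companion lists and all genes. Cytosolic synthetases were called higher in 52.6% and lower in 15.8%, against 28.7% and 29.1% of all 16108 genes.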

How the data were processed

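The 4 libraries were analysed from 1 deposited table each, which per the file headers gives raw read counts by gene together with the authors' FPKM and TPM. The submitters' processing notes name STAR, featureCounts, DESeq2 and build hg19, and their versions, gene annotation and strand setting are not stated. FPKM and a normalized table of the whole series entered no result. Titles gave the groups, since the treatment label of both shPIWIL4 libraries also has the word scrambled in it.

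The count test was edgeR 4.0.16 (R 4.3.3): filterByExpr with minimum count 10 and minimum total 15, TMM scaling, then a robust quasi-likelihood F test on group alone, with Benjamini-Hochberg adjustment over 16108 genes and calls at 0.05. Standard errors are the log2 fold change over the square root of F. TMM centres on all genes, so an overall shift in RNA content would be missed. No list was tested as a set. The fit was also run on simulated counts in which most genes did not change. Many genes were called in these data, so that run cannot vouch for the calls. Chi-square per gene was 27.9 within shPIWIL4 and 7.89 within Scrambled, so replicates differed by more than sampling noise. Alternatives were DESeq2 1.42.0, other scalings and filters, a replicate block and leaving out each library.

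Members and companion lists were chosen with earlier results of these data known. All members could be named, with values in every library for the 6 cytosolic and 6 mitochondrial genes that changed most and for those with special roles, and for others chosen after their values were seen. Companion lists gave up to 5 called genes with the smallest p. These lists were the complex scaffold, the amino acid response, eIF2alpha kinases, tRNA maturation and export, mitochondrial tRNA partners, proofreading, the interferon-gamma response and cell type markers. Older symbols were matched for PET112 and MTERF. Promoters came from RefSeq (GRCh38.p14) and shared stretches from GENCODE 29 transcripts, which are not the authors' build.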

Additional observations from a re-analysis of the deposited data

How the results depend on the processing

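Of the 21 called members, 15 stayed on their side of the threshold with the same direction under every alternative run, and 6 (AARS, SARS, HARS2, LARS2, MARS2 and YARS2) did not under at least 1. No called member changed sign. A further 8 members that were not called passed under some alternative. The lowest count of a tested member in any library was 209, for PARS2, whose standard error (0.14) was the largest among the members. The cause of each move below was not tested.

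Upper-quartile factors moved the centre of all genes to -0.12 (log2) and left 37.6% of calls higher, against 49.7% with TMM. Medians then became 0.029 for mitochondrial members, 0.31 for the complex scaffold, -0.18 for the amino acid response, 0.31 for tRNA maturation, 0.32 for mitochondrial tRNA partners, -0.042 for proofreading and -0.20 for the interferon-gamma response. The higher counts became 6 for the amino acid response and 1 for the eIF2alpha kinases, and 1 mitochondrial tRNA partner was lower. With library totals the medians were -0.10 for the amino acid response, 0.031 for proofreading and -0.12 for the interferon-gamma response, and with no filter -0.016 for the amino acid response and -0.16 for the interferon-gamma response. The stricter filter gave 0.035 for proofreading and -0.16 for the interferon-gamma response, and DESeq2 gave -0.26 for the interferon-gamma response. Lower mitochondrial members numbered 1 with no filter, with DESeq2 and with the replicate block, and 1 mitochondrial tRNA partner was lower with library totals, the stricter filter and the crossed block.

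The labels do not say that replicate numbers mark a shared culture or day. Same-numbered libraries deviated in opposite directions (r = -0.31 across genes). With 2 libraries per group, this correlation cannot tell whether they shared a culture or day. With the replicate block, AARS, MARS2 and YARS2 were not called (edgeR adjusted p 0.0747, 0.114 and 0.127), 7 amino acid response genes and 1 eIF2alpha kinase gene were higher. With the numbers crossed, a pairing added after seeing the data, 13 cytosolic and 7 mitochondrial members were higher, 4 and 2 lower, and 1 proofreading gene was higher.

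Leaving out 1 library at a time gave 10 to 14 higher and 1 to 4 lower cytosolic members, and 3 to 8 higher and 1 to 2 lower mitochondrial members. It gave 1 to 2 higher scaffold genes, 7 to 12 higher amino acid response genes with medians of -0.21 to 0.014, 1 to 5 higher eIF2alpha kinase genes, 0 to 1 lower tRNA maturation genes and 0 to 1 lower mitochondrial tRNA partners. Proofreading had 0 to 1 higher and 0 to 1 lower genes with medians of -0.015 to 0.18, and the interferon-gamma response 1 to 2 higher with medians of -0.17 to 0.0042. With TTGCATCA in place of TGATGNAA the share was 1.08% of all genes and 0% of mitochondrial members. Because they cross 0 here, the amino acid response, proofreading and interferon-gamma medians have no fixed sign.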
